A study of Mus musculus with 46 samples.

Results

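Canonical Polycomb repressive complex 1 (PRC1) genes were followed across 46 bulk RNA-seq libraries of mouse synovial sarcoma, each from a tumour with its own mouse number. The 9 genes were chosen by name, as the CBX readers Cbx2, Cbx6, Cbx7 and Cbx8, the PCGF subunits Bmi1 and Pcgf2, and the PHC subunits Phc1, Phc2 and Phc3, among 56854 genes counted in both deposited tables. All 9 passed the filter on low counts in every fit. Every tumour expressed a human fusion oncogene, SS18::SSX2 in the hSS2 mice or SS18::SSX1 in the hSS1 mice, from the Rosa26 locus after TATCre protein was injected into a hindlimb at 8 days of age. There were 13 hSS2 control tumours with the fusion alone, 8 with the fusion and floxed Pbrm1 (hSS2 Pbrm1-fl), 8 with floxed Arid1a (hSS2 Arid1a-fl) and 8 with floxed Arid1b (hSS2 Arid1b-fl). There were 5 hSS1 control tumours and 4 hSS1 tumours with floxed Pbrm1 (hSS1 Pbrm1-fl). Pbrm1 encodes a subunit of the PBAF remodelling complex, and Arid1a and Arid1b encode alternative subunits of canonical BAF. The study names littermates as controls, but the labels tie no tumour to a litter, and they do not give floxed alleles for the controls, the age of the mice at collection, or the share of a tumour piece that was tumour cells.

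Canonical PRC1 compacts chromatin that carries H3K27me3 and holds the RING ligases that ubiquitylate histone H2A at lysine 119. In each complex a CBX protein reads the methyl mark, PCGF2 or BMI1 pairs with a RING protein, and a PHC protein links complexes together through its SAM domain. Members of a family can replace each other, so the balance within a family differs between cell types, and in synovial sarcoma the ubiquitin mark is known for its link to the SSX tail of the fusion.

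Libraries held 10.6 M to 21.3 M counts in the hSS2 table and 10.1 M to 14.1 M in the hSS1 table. Levels are given as CPM (counts relative to the size of the library), scaled by TMM within each table. Pbrm1 was lower in hSS2 Pbrm1-fl tumours (95.0 to 139 CPM) than in their controls (171 to 316 CPM), and Arid1a was 249.4 ± 14.1 CPM in hSS2 Arid1a-fl tumours against 482 ± 85.8 in controls (SD, n = 8 and 13). Arid1b overlapped between hSS2 Arid1b-fl tumours and controls (log2 fold change -0.80, edgeR adjusted p = 0.145), and Pbrm1 was 102 to 252 CPM in hSS1 Pbrm1-fl tumours against 275 to 373 in hSS1 controls. The 7 synovial sarcoma markers were measured in every group. The skeletal muscle score (mean log2 CPM of 12 skeletal muscle genes) ran from -1.40 to 11.1 among hSS2 tumours, and muscle genes were present in every group. Group medians in hSS2 ran from 4.75 to 4.99 for the endothelial score and from -1.33 to -0.37 for T cells. They ran from -1.45 to -0.25 for B cells and from -1.51 to -0.26 for adipocytes. Only 1 of 4 B cell genes and 4 of 5 T cell genes passed the filter on low counts and entered these scores. In hSS2, mouse numbers under 1000 held all Arid1a-fl tumours, numbers from 1000 to under 2000 all Arid1b-fl tumours, and numbers of 2000 and over all Pbrm1-fl tumours, with 5, 4 and 4 control tumours in the same ranges. The labels do not say what a number range stands for, so results are also given against controls of the same range where this changed a call.

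The promoters of the 2 members that passed a test are shown because PRC1 gathers at CpG-rich starts. Of the 9 genes, 8 matched a RefSeq start (GRCm38.p6). Sequences are the 250 bases before the start, 5′ to 3′ on the gene's strand, with each CpG in capitals. Cbx7 lies on chromosome 15 (GRCm38, minus strand) and its window holds 23 CpGs, a number reached by 13.3% of 32851 promoters. Phc2 lies on chromosome 4 (plus strand) and has 3 annotated starts whose windows hold 13, 1 and 34 CpGs. The CpG-poor and the CpG-rich start are shown. The search was for the letters CG, and all promoters have a median of 6.
Cbx7, chr15:79932647-79932896: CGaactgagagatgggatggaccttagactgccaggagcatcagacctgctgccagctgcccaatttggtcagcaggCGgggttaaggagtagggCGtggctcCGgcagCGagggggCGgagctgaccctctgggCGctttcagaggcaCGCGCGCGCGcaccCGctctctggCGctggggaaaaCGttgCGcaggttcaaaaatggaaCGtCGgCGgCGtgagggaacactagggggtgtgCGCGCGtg
Phc2, CpG-poor start, chr4:128688488-128688737: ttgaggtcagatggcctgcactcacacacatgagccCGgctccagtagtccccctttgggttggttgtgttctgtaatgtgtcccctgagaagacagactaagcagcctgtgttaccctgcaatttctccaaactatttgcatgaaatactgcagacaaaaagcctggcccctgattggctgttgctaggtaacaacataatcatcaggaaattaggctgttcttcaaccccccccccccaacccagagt
Phc2, CpG-rich start, chr4:128727321-128727570: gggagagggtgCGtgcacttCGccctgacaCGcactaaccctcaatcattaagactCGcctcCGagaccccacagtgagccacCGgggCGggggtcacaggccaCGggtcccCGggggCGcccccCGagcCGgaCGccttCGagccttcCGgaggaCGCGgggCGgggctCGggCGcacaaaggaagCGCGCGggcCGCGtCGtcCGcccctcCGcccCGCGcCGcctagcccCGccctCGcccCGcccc
The Phc2 start with 34 CpGs is matched or exceeded by 3.5% of promoters, and the start with 1 CpG by 92.1%. The windows of Cbx6, Cbx8 and Bmi1 hold 20, 22 and 21 CpGs, and those of Phc3, Phc1 and Pcgf2 hold 12, 8 and 5. The counts are per gene, so they do not tell which Phc2 start was used.

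Compared per length, Cbx6, Pcgf2 and the PHC genes held the first 5 places by median in every group but the hSS1 controls, and Cbx8 was the lowest in all 6 groups. In hSS2 controls the median levels in CPM per kilobase of exon were 30.2 for Cbx6, 22.6 for Pcgf2, 15.7 for Phc1, 14.7 for Phc2, 13.1 for Phc3, 8.19 for Cbx7, 5.46 for Cbx2, 4.53 for Bmi1 and 2.88 for Cbx8. The 3 PHC genes could not be ordered on this length, since Phc1 exceeded Phc2 in 6 of 13 tumours and Phc2 exceeded Phc3 in 7 of 13. Cbx2 and Bmi1 could not be ordered either, with Cbx2 higher in 7 of 13. Pcgf2 exceeded Phc1 and Phc3 exceeded Cbx7 in all 13 tumours, although the ranges of neighbours overlapped over the group. In hSS2 Arid1a-fl tumours Cbx2 stood sixth (9.68 CPM per kilobase) and Cbx7 eighth (4.41), the reverse of their order in hSS2 controls. In hSS1 controls Pcgf2 (30.2 CPM per kilobase) and Phc1 (27.6) stood before Cbx6 (22.6), Phc3 (11.4) was seventh behind Cbx2 (17.1) and Bmi1 (13.2), and Cbx7 (5.18) was eighth. Exon length was the union of annotated exons. With the longest transcript as the length, 4 to 7 of the 9 genes kept their rank in a group, and the others moved by 1 or 2 places.

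**Figure D1:**
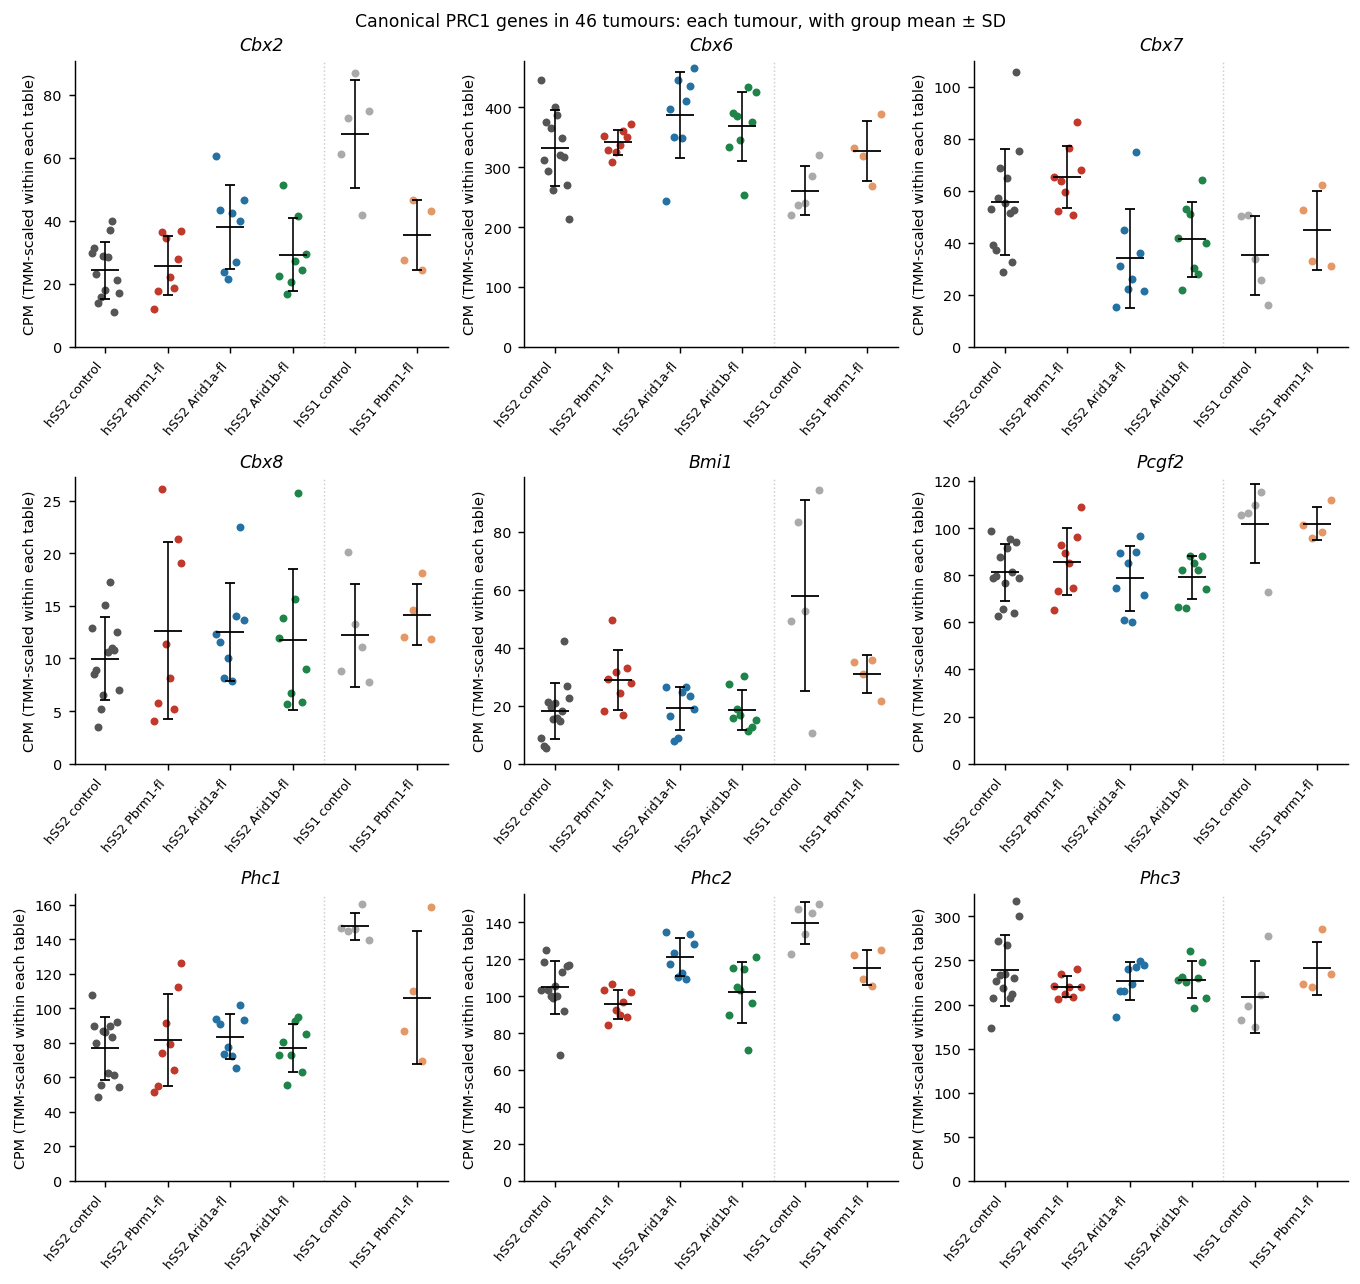
CPM of each of the 9 genes (vertical axes, TMM-scaled within each table) in every tumour, by group, with the group mean and SD as bars. The 2 tables are parted by a dotted line. Cbx7 was below every hSS2 control in 4 of the 8 Arid1a-fl tumours, and the hSS1 control tumours stood high for Cbx2 and Phc1.

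The CBX genes encode the reader subunits, and Cbx6 had the largest share of the 4 CBX genes analysed here in all 46 tumours. Its share of their summed CPM per kilobase was 64.6% ± 6.40 in hSS2 controls (SD, n = 13) and 50.2% ± 8.78 in hSS1 controls (n = 5, median 45.9%). Cbx2, a reader that also compacts nucleosomes, held 11.9% ± 4.25 in hSS2 controls and 31.9% ± 6.08 in hSS1 controls. The tables were counted and scaled separately, and the fusion and the table cannot be told apart. Cbx8 held 5.54% to 7.83% on average over the 6 groups. Cbx7, a reader known for binding the INK4 locus, held 18.0% ± 6.998 in hSS2 controls, 19.4% ± 2.56 in Pbrm1-fl, 9.59% ± 4.83 in Arid1a-fl and 12.7% ± 4.59 in Arid1b-fl tumours (n = 8 each).

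Disruption of Pbrm1, Arid1a or Arid1b in hSS2 tumours was asked against the same 13 controls, which the 3 comparisons share. No member passed an adjusted p of 0.05 in any of the 3 with edgeR's quasi-likelihood test and Benjamini-Hochberg adjustment over 20083 genes. Over all genes, 7.35% were called for Pbrm1-fl, 3.17% for Arid1a-fl and 0.0548% for Arid1b-fl. At an unadjusted p under 0.05 the members numbered 1, 3 and 0, beside 22.4%, 23.0% and 6.22% of all genes. DESeq2 called 0, 1 and 0 members, the 1 being Cbx7 in Arid1a-fl, beside 5.63%, 4.26% and 0.0443% of the 40638 genes it fitted, a wider set than edgeR's filter kept. The median log2 fold change of the members was 0.09, 0.12 and 0.01, beside 0.00, -0.04 and 0.01 over all genes. In bulk tumours, fewer cells of a type and less RNA per cell cannot be told apart.

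Cbx7 had the largest member difference with Arid1a. Its levels in the 8 Arid1a-fl tumours were 15.2, 31.2, 44.98, 22.3, 26.1, 74.9, 36.1 and 21.6 CPM, against a lowest, median and highest of 28.95, 53.1 and 106 in controls. Arid1a-fl replicate 6, at 74.9, stood above all the other tumours of its group, and the groups overlapped. The log2 fold change was -0.71 (SE 0.24, edgeR adjusted p = 0.0813), and DESeq2 gave -0.71 (adjusted p = 0.0423). Without Arid1a-fl replicate 6 it was -0.98 (edgeR adjusted p = 0.0128), and it passed in no other fit with 1 tumour left out. Leaving out the highest tumour of the lower group must widen the difference. Arid1a-fl replicate 6 had the lowest proliferation score of its group, 3.64 against a group median of 5.30. The proliferation score is the mean log2 CPM of 12 mitotic genes. With that score as a covariate the Cbx7 difference was -0.40 (edgeR adjusted p = 0.197).

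Cbx2 differed the other way with Arid1a without passing. It was 38.2 ± 13.3 CPM in Arid1a-fl tumours (n = 8) and 24.3 ± 8.97 in controls (n = 13), a log2 fold change of 0.65 (SE 0.24, edgeR adjusted p = 0.101). Cbx2 in Pbrm1-fl tumours was 25.8 ± 9.47 CPM (log2 fold change 0.09, SE 0.24). Cbx6 was 332 ± 63.7 CPM in controls and 342 ± 21.0, 387 ± 71.8 and 368 ± 57.7 in the Pbrm1-fl, the Arid1a-fl and the Arid1b-fl group, and its largest log2 difference from controls was 0.22 (SE 0.11). Cbx8 varied widely within groups, from 4.09 to 26.1 CPM within Pbrm1-fl, and its SE was 0.32 in all 3 comparisons.

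The PCGF genes encode the partners of the RING ligases, and Pcgf2 exceeded Bmi1 by far in the hSS2 tumours. Pcgf2 held 83.5% ± 8.32 of the pair's summed CPM per kilobase in hSS2 controls, 77.5% ± 4.98 in Pbrm1-fl, 82.5% ± 6.37 in Arid1a-fl and 82.8% ± 5.88 in Arid1b-fl tumours. Pcgf2 was among the steadiest members, with a log2 difference from controls of 0.08, -0.05 and -0.04 (SE 0.10 each). Bmi1, the founding PCGF proto-oncogene, was 18.1, 29.1, 49.7, 31.6, 24.2, 16.7, 33.04 and 27.8 CPM in the 8 Pbrm1-fl tumours, against a lowest, median and highest of 5.57, 18.0 and 42.5 in controls. The groups overlapped, and the log2 fold change was 0.65 (SE 0.28, edgeR adjusted p = 0.156). The controls themselves differed by number range, with a median Bmi1 of 22.5 CPM for numbers under 1000, 17.6 from 1000 to under 2000 and 7.495 for 2000 and over. Between the highest and the lowest range of controls, Bmi1 differed by -1.24 on the log2 scale (SE 0.40, edgeR adjusted p = 0.0801, with 1.75% of all genes called). Against the 4 controls of its own range, Bmi1 in Pbrm1-fl tumours was higher by 1.46 (edgeR adjusted p = 0.0484, with 2.14% of all genes called).

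The PHC genes encode the SAM-domain subunits, and the 3 had near-equal levels per kilobase of annotated exon in hSS2 tumours. With the longest transcript as the length, hSS2 control medians were 26.2 CPM per kilobase for Phc2, 20.9 for Phc3 and 19.8 for Phc1. Phc2 then stood before Phc1 and Phc3 in all 6 groups, so the near-equality depends on the length used. In hSS2 controls Phc1 held 33.6% ± 6.93, Phc2 34.5% ± 3.60 and Phc3 31.9% ± 5.34 of their summed CPM per kilobase. Phc2 was 121 ± 10.4 CPM in Arid1a-fl tumours and 105 ± 14.6 in controls (log2 fold change 0.21, SE 0.09, edgeR adjusted p = 0.138). Phc1 and Phc3 differed from controls by -0.12 to 0.12 in the 3 comparisons.

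**Figure D2:**
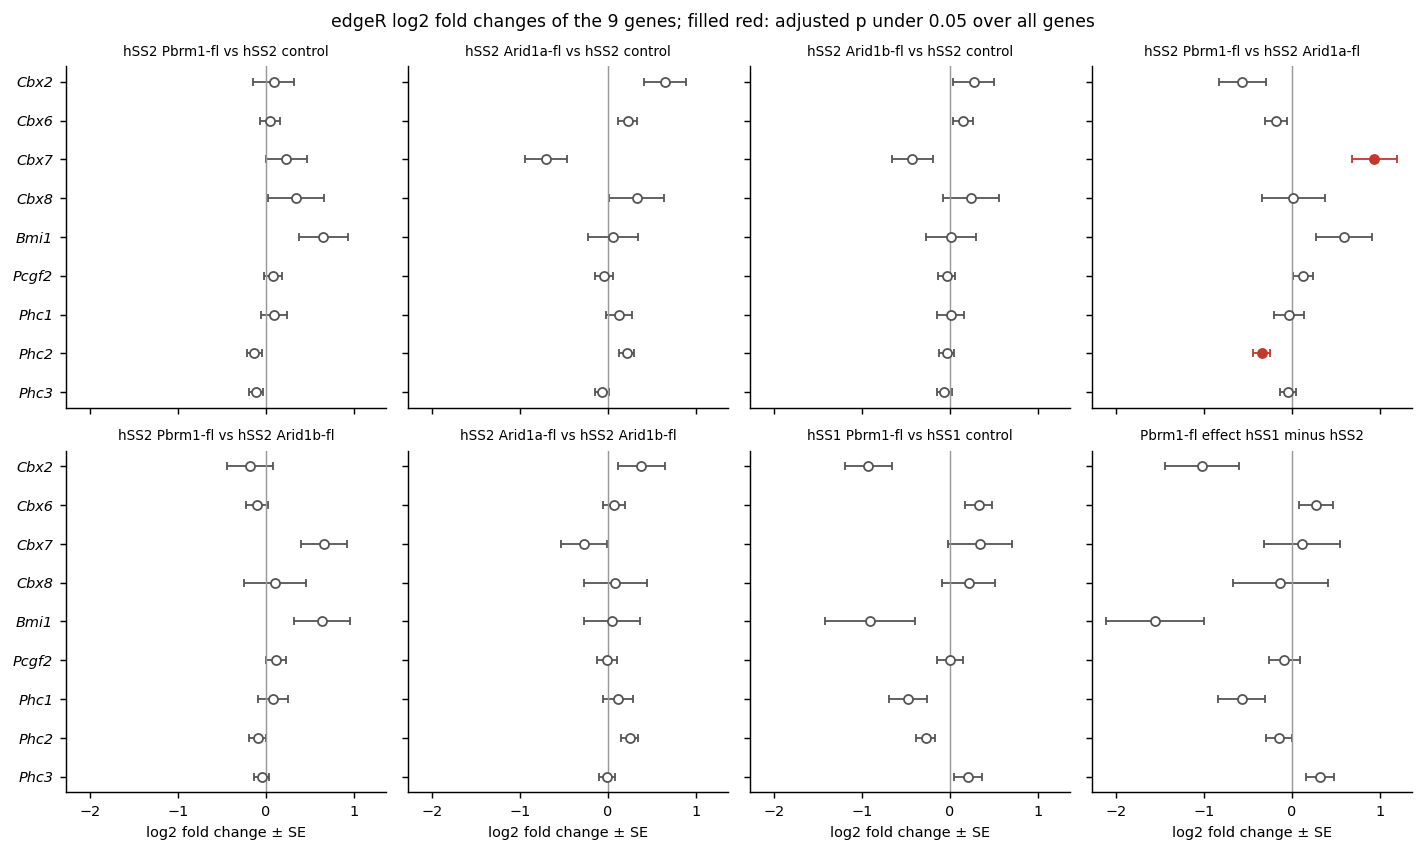
edgeR log2 fold changes (horizontal axes, first group against second, with SE as bars) of the 9 genes in 8 comparisons. Filled red points passed an adjusted p of 0.05 over all genes, and only Cbx7 and Phc2 in Pbrm1-fl against Arid1a-fl did.

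The direct comparison of Pbrm1-fl with Arid1a-fl tumours called 2 of the 9 members, beside 12.3% of all genes, a share of members close to that background. At an unadjusted p under 0.05 there were 3 members, beside 26.8% of all genes. Cbx7 was higher in Pbrm1-fl tumours and Phc2 was lower (6.79% of all genes were called higher and 5.5% lower). Cbx7 in the 8 Pbrm1-fl tumours was 65.1, 52.2, 63.9, 59.3, 76.3, 50.7, 86.3 and 68.1 CPM. Each of them stood above 7 of the 8 Arid1a-fl tumours, and replicate 6 of that group lay among them. The means were 65.3 ± 11.9 and 34.03 ± 18.9 CPM, a log2 fold change of 0.94 (SE 0.26, 1.92-fold, edgeR adjusted p = 0.0152). DESeq2 called the same 2 members, beside 8.56% of the genes it fitted. Leaving out each of the 16 tumours in turn gave 0.83 to 1.21 (adjusted p 0.00143 to 0.0372). With the proliferation score as a covariate, with a common slope for all groups, the difference was 0.93 (edgeR adjusted p = 0.000334). Within groups, Cbx7 followed that score with r = -0.90 in Arid1a-fl but -0.05 in Pbrm1-fl tumours. With the skeletal muscle score as a covariate Cbx2 was also called, beside 14.7% of all genes in that fit. Its log2 fold change was -0.68 (edgeR adjusted p = 0.0308), against -0.57 (SE 0.27, adjusted p = 0.166) without the covariate.

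Phc2 in the 8 Pbrm1-fl tumours was 103, 84.1, 107, 92.8, 89.8, 97.1, 88.5 and 102 CPM. In the 8 Arid1a-fl tumours it was 135, 118, 123, 110, 112, 109, 134 and 129 CPM. The groups did not overlap, which held for 1.95% of all genes in this comparison. The log2 fold change was -0.34 (SE 0.10, 0.788-fold, edgeR adjusted p = 0.0154). Leaving out each tumour in turn gave -0.39 to -0.32 (adjusted p 0.0108 to 0.0319).

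Both calls were lost when each group was set against the controls of its own number range and the differences were compared. Cbx7 then differed by 1.38 (edgeR adjusted p = 0.0783) and Phc2 by -0.50 (adjusted p = 0.0801), while Bmi1 differed by 1.84 (adjusted p = 0.0427), with 2.17% of all genes called. The controls numbered under 1000, used for Arid1a-fl, include control replicate 9, with the lowest Phc2 of the 37 hSS2 tumours (68.3 CPM). Its part in the own-range Phc2 value was not tested. Number range and floxed gene cannot be told apart within the floxed groups. Phc2 lies 4.93 Mb from Arid1a on chromosome 4. Of 329 tested genes within 10 Mb of Arid1a, 9.42% were called between Pbrm1-fl and Arid1a-fl tumours, beside 12.3% of all genes in that comparison. The called genes were 25 higher and 6 lower in Pbrm1-fl. The median log2 fold change of the 329 was 0.09, beside 0.016 over all genes.

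No member passed in Pbrm1-fl against Arid1b-fl (4.37% of all genes called) or in Arid1a-fl against Arid1b-fl (0.0996%) with edgeR's quasi-likelihood test. At an unadjusted p under 0.05 there was 1 member in each, beside 17.9% and 12.5% of all genes, and DESeq2 called 0 in both, beside 3.89% and 0.551% of the genes it fitted. In the first it was Cbx7, with a log2 fold change of 0.66 (SE 0.26, edgeR adjusted p = 0.149). With the proliferation score as a covariate, with a common slope for all groups, it was 0.83 (edgeR adjusted p = 0.0026). In that fit 5.87% of all genes were called. In the second it was Phc2, at 0.25 (SE 0.10, edgeR adjusted p = 0.286).

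The same question was asked of Pbrm1 in the hSS1 tumours, where no member passed the edgeR test. Only 0.00562% of all genes (1 gene) passed there. At an unadjusted p under 0.05 there were 2 members, Cbx2 and Phc2, beside 17.2% of all genes, and DESeq2 called 1, Cbx2, beside 3.63% of the 34355 genes it fitted. Cbx2 was 27.5, 46.6, 24.3 and 43.1 CPM in Pbrm1-fl tumours and 61.2, 72.8, 87.1, 41.9 and 74.8 in controls. All but the lowest control stood above every Pbrm1-fl tumour. The log2 fold change was -0.93 (SE 0.27, edgeR adjusted p = 0.164), and with DESeq2 the adjusted p was 0.034. In simulated counts of this size, 12% of genes changed by 1 on the log2 scale were recovered.

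Phc1 was 86.7, 110, 69.5 and 159 CPM in hSS1 Pbrm1-fl tumours and 147, 145, 146, 161 and 140 in hSS1 controls (log2 fold change -0.47, SE 0.22, edgeR adjusted p = 0.302). Of the floxed tumours, 3 were below all controls and 1 was within their range. Bmi1 was 34.9, 31.1, 35.8 and 21.6 CPM in hSS1 Pbrm1-fl tumours and 49.1, 83.4, 52.6, 10.4 and 94.2 in hSS1 controls (log2 fold change -0.91, SE 0.52, edgeR adjusted p = 0.394). Control replicate 4, at 10.4, was below all floxed tumours, and the other 4 controls were above them.

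The difference between the hSS1 and hSS2 effects of Pbrm1 was tested over both tables. No member passed the edgeR test, beside 2.86% of all genes called. At an unadjusted p under 0.05 there were 3 members, Bmi1, Cbx2 and Phc1, beside 18.9% of all genes, and DESeq2 called 0, beside 2.83% of the genes it fitted. The Bmi1 effects of 0.65 in hSS2 and -0.91 in hSS1 differed by -1.56 (SE 0.55, edgeR adjusted p = 0.109). Without hSS1 control replicate 4 that difference was -1.81 (adjusted p = 0.0361).

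hSS1 and hSS2 controls are given side by side only. On a scale set over both tables, Phc1 in the 5 hSS1 controls was above all 13 hSS2 controls by a mean log2 of 0.89, as were 1.71% of all genes. The proliferation score of the hSS1 controls was 5.53 to 6.83, against 2.13 to 6.01 in hSS2 controls, and its part in this difference was not tested. PHC shares per kilobase of exon were 46.9% ± 3.301 for Phc1, 33.2% ± 1.32 for Phc2 and 19.9% ± 2.902 for Phc3 in hSS1 controls (n = 5). With the longest transcript as the length, median levels there were 36.8 CPM per kilobase for Phc2, 34.6 for Phc1 and 18.1 for Phc3.

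The balance within a family was tested as 6 log2 ratios per length in 4 comparisons, 24 exact permutation tests in all (two-sided). Of the 24, 3 passed after Benjamini-Hochberg adjustment, all in Arid1a-fl against control and all with Cbx7 as the denominator, so they are not independent. Cbx2/Cbx7 was 0.86 ± 1.10 in Arid1a-fl tumours and -0.59 ± 0.92 in controls, a difference of 1.45 (exact p = 0.00461, adjusted p = 0.039). Cbx6/Cbx7 was higher by 1.01 (exact p = 0.00238, adjusted p = 0.039) and Cbx8/Cbx7 by 1.15 (exact p = 0.00488, adjusted p = 0.039). Of the 8 Arid1a-fl tumours, 7, 7 and 6 lay above the control median. Against the 5 controls of the same number range the differences were 1.61, 1.34 and 1.03, with adjusted exact p of 0.16, 0.0808 and 0.182. These calls were also lost in 13 of the 21 fits that left out 1 tumour (control replicates 4, 5, 7, 8, 11, 12 and 13, and Arid1a-fl replicates 1, 2, 4, 5, 7 and 8), where the smallest adjusted exact p ran up to 0.108.

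Bmi1/Pcgf2 was higher by 0.69 in Pbrm1-fl tumours than in hSS2 controls (exact p = 0.0568, adjusted p = 0.17), and by 1.49 against the 4 controls of the same range (exact p = 0.0101, adjusted p = 0.0808). Phc1/Phc2 differed by -0.07 to 0.19 between the hSS2 floxed groups and controls. Phc3/Phc2 differed by -0.28 in Arid1a-fl tumours (exact p = 0.0255, adjusted p = 0.123). In hSS1, Phc3/Phc2 was higher by 0.50 in Pbrm1-fl tumours (exact p = 0.0238, adjusted p = 0.123, where the smallest p possible is 0.00794), and Cbx2/Cbx7 differed by -1.35 (exact p = 0.0556).

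**Figure D3:**
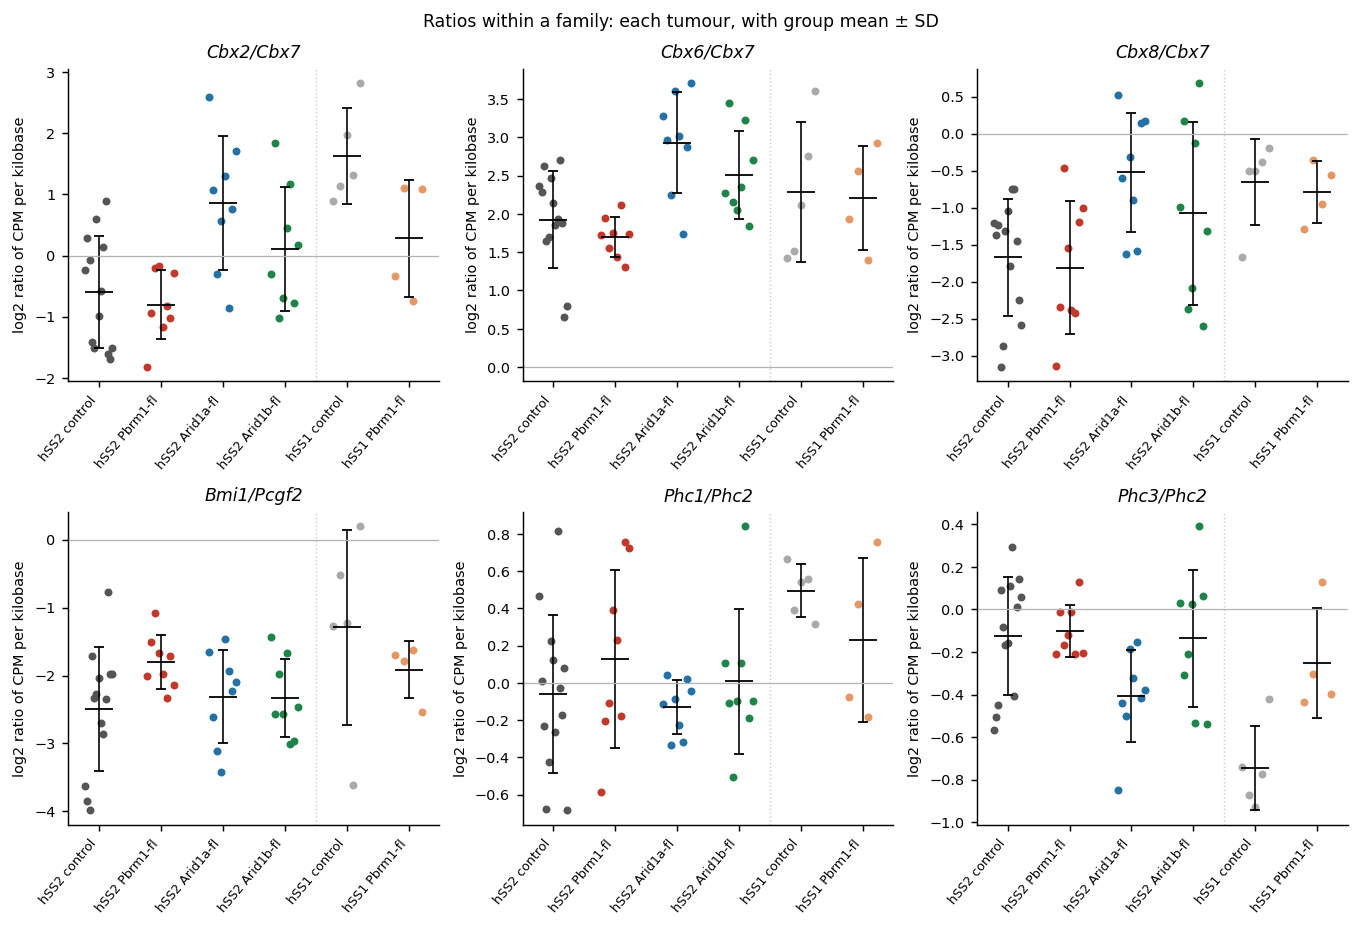
log2 ratios of CPM per kilobase (vertical axes) for 6 within-family ratios in every tumour, by group, with the group mean and SD as bars. The 3 ratios over Cbx7 stood higher in Arid1a-fl tumours than in hSS2 controls, with overlap between the groups.

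How the members moved with the make-up of the tumour pieces was described within the 37 hSS2 tumours, with each group's mean removed. Of 27 relations between 9 members and 3 marker scores, 13 passed a permutation test after Benjamini-Hochberg adjustment. Cbx7 fell with the proliferation score, with r = -0.77 and rho = -0.76 (permutation p = 1e-05 each, the smallest these permutations can give, and adjusted p = 6.75e-05 for r). Without the 2 tumours farthest from the median score r was -0.70. Within groups r was -0.92 in controls, -0.90 in Arid1a-fl and -0.72 in Arid1b-fl tumours, but -0.05 in Pbrm1-fl tumours. Phc3 moved the same way (r = -0.58, rho = -0.58, permutation p = 0.00065, adjusted p = 0.00195), with r = -0.43 without the 2 farthest tumours. Cbx2 (r = 0.57, rho = 0.60, permutation p = 0.0005, adjusted p = 0.00193) and Phc1 (r = 0.51, rho = 0.52, permutation p = 0.00227, adjusted p = 0.00557) rose with proliferation, with r = 0.57 and 0.63 without the 2 farthest.

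With the skeletal muscle score 4 members fell, with r of -0.60 for Cbx2, -0.57 for Cbx8, -0.47 for Pcgf2 and -0.63 for Phc1 (permutation adjusted p at most 0.00958). With the macrophage score 5 fell, with r of -0.56 for Cbx2, -0.36 for Cbx6, -0.78 for Cbx8, -0.58 for Pcgf2 and -0.74 for Phc1 (permutation adjusted p at most 0.0244). The corresponding rho ran from -0.79 to -0.41, and r without the 2 farthest tumours from -0.75 to -0.38. The muscle relations were weak within Arid1a-fl tumours, where r was 0.19 for Cbx2, -0.09 for Cbx8, -0.15 for Pcgf2 and -0.24 for Phc1. The Pcgf2 relation with macrophages had r = -0.03 within Arid1b-fl tumours. The Phc3 relation with proliferation had r = 0.02 within Pbrm1-fl tumours. Bmi1 and Phc2 passed with none of the 3 scores. The scores are related to each other, with r = 0.54 between muscle and macrophage and -0.48 between muscle and proliferation. Group medians of the muscle score were 7.63 in controls and 2.36 (Pbrm1-fl), 4.58 (Arid1a-fl) and 5.30 (Arid1b-fl), and those of the proliferation score were 4.08, 4.78, 5.30 and 4.43 in the same order. The macrophage medians were 4.32, 4.63, 3.83 and 4.77.

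**Figure D4:**
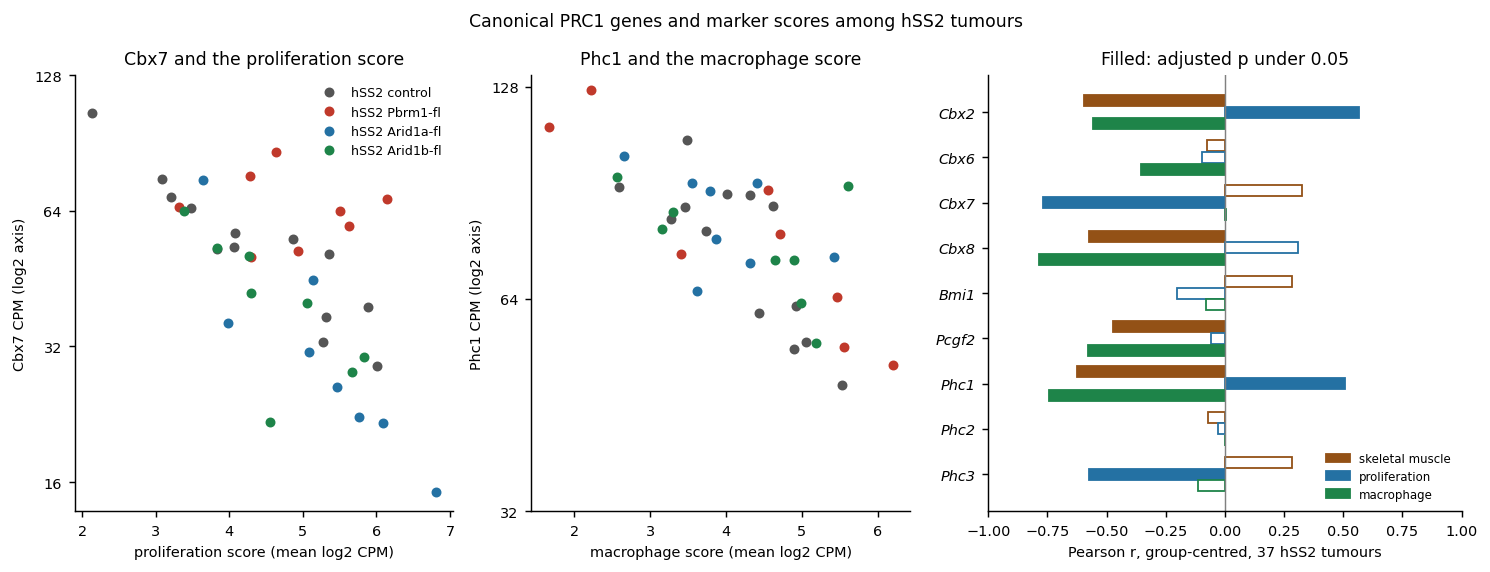
Cbx7 against the proliferation score and Phc1 against the macrophage score in 37 hSS2 tumours (CPM on a log2 axis, scores as mean log2 CPM), and Pearson r of all 9 genes with 3 scores after removing group means. Filled bars passed an adjusted p of 0.05, and Bmi1 and Phc2 have none.

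Among the 36 member pairs in the same 37 tumours, r passed a permutation test after Benjamini-Hochberg adjustment in 8. Phc1 rose with Cbx8 (r = 0.74, rho = 0.73) and Cbx2 (r = 0.70, rho = 0.69, permutation p = 1e-05 and adjusted p = 0.00018 for r in both). The neighbours Cbx2 and Cbx8, 0.005 Mb apart on chromosome 11, gave r = 0.61 (rho = 0.60, permutation p = 0.00015, adjusted p = 0.00135). The neighbours Cbx6 and Cbx7, 0.0811 Mb apart on chromosome 15, gave r = 0.06 (rho = -0.04, permutation p = 0.746, adjusted p = 0.908). Cbx7 rose with Phc3 (r = 0.54, rho = 0.54, permutation p = 0.00099, adjusted p = 0.00594) and fell with Cbx2 (r = -0.46, rho = -0.50, permutation p = 0.00451, adjusted p = 0.0232). Pcgf2 rose with Cbx8, Phc1 and Cbx2 (r = 0.60, 0.56 and 0.46, rho = 0.59, 0.51 and 0.38, permutation adjusted p = 0.00084, 0.00461 and 0.0314). For the Pcgf2 and Cbx2 relation rho did not pass (adjusted p = 0.103) and r was 0.33 without the 2 farthest tumours. For the other 7 pairs r without them ran from -0.53 to 0.67 with the same signs. Within groups 2 pairs changed sign, Cbx2 and Cbx7 with r = 0.27 in Pbrm1-fl tumours (-0.85 to -0.46 in the other groups) and Cbx2 and Pcgf2 with r = -0.05 in Arid1a-fl tumours (0.37 to 0.93 in the others). The other 6 pairs kept their sign in all 4 groups, with r as low as 0.13 for Cbx8 and Pcgf2 in Arid1b-fl tumours.

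The genes whose pattern was most like each member were read by the same group-centred r over 37 tumours and 17285 genes, as a description. The nearest to Cbx7 was Ezh1 (r = 0.88), a PRC2 methyltransferase gene, then Crebrf (r = 0.86). The nearest were Ap4m1 for Cbx2 (r = 0.84), Tmem175 for Cbx6 (0.82), Mdm1 for Cbx8 (0.85), D130058E05Rik for Pcgf2 (0.74), Wbp1 for Phc1 (0.90) and Ppil4 for Phc3 (0.85). The 2 nearest to Bmi1, Mllt10 (r = 0.74) and Commd3 (0.73), lie 0.622 and 0.005 Mb from it on chromosome 2. The 3 nearest to Phc2, Adprhl2, Kdm1a and Stx12 (r = 0.85, 0.84 and 0.80), all lie on chromosome 4.

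That position pattern was followed for Phc2 and Phc1. Of the 50 genes nearest to Phc2, 49 (98.0%) were on chromosome 4, which holds 5.72% of the genes searched. Among 283 genes within 10 Mb of Phc2 the median r with it was 0.36, against -0.01 for genes on other chromosomes. It rested on 2 tumours. In hSS2 control replicate 9, 214 of 236 genes within 10 Mb of Phc2 were below the median tumour, with a median log2 difference of -0.87, and Phc2 was the lowest of all 37 tumours (68.3 CPM). In hSS2 Arid1b-fl replicate 6, 229 of 236 were below it, with a median of -0.78, and Phc2 was the next lowest (70.7 CPM). In the other 35 tumours the median of these genes was -0.12 to 0.14. Without the 2 tumours, 6 of the 50 nearest genes were on chromosome 4 and the median r nearby was 0.02. The Phc2 difference between Pbrm1-fl and Arid1a-fl tumours was -0.34 (edgeR adjusted p = 0.00154) without them. Neither tumour is in these 2 groups, so leaving them out bears on the spread shared by the fit. It could not test the difference itself.

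Arid1a lies in the same stretch. In hSS2 control replicate 9 it stood at -1.04 on the log2 scale against the median tumour, as low as in Arid1a-fl tumours (-1.10 to -0.82), and 396 of 451 other genes from 110 to 160 Mb of chromosome 4 were also lower (median -0.82). The first 60 Mb of the chromosome had a median of 0.00 there. No floxed allele is in that tumour's label.

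Phc1 lies on chromosome 6, which held 10 of its 50 nearest genes and 5.19% of the genes searched. The median r with Phc1 was 0.19 over 203 genes within 10 Mb and 0.00 over other chromosomes. Without 3 hSS2 tumours these were 7 of 50 and 0.08. In those 3 the genes within 10 Mb stood apart. They were higher in Pbrm1-fl replicates 7 and 8 (median log2 difference 0.37 and 0.52 over 143 genes), and these held the 2 highest Phc1 levels of the 37 tumours (112 and 127 CPM). They were also higher in Arid1b-fl replicate 5 (0.35), with Phc1 at 92.6 CPM. Without these 3 tumours, the Phc1 difference of Pbrm1-fl from control was -0.15, against 0.09 with them, and neither passed (edgeR adjusted p = 0.655 and 0.766). The Cbx7 difference between Pbrm1-fl and Arid1a-fl tumours without these 3 was 0.85 (adjusted p = 0.0515). In hSS1 the same genes were lower in Pbrm1-fl replicates 1, 2 and 3 (median -0.36, -0.39 and -0.39 over 152 genes), the 3 tumours with Phc1 below all controls. In replicate 4, with Phc1 at 159 CPM, their median was 0.07.

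Around the other members the medians stayed between -0.27 and 0.51. Control replicate 1 stood out near Cbx2 and Cbx8 (0.51 over 168 genes), Pcgf2 (0.47 over 255), Cbx6 and Cbx7 (0.46 over 224) and Phc3 (-0.26 over 63). Cbx6 and Pcgf2 were each the highest but 1 of 37 tumours in it, and Phc3 the lowest. Around Bmi1 no tumour was beyond 0.15. In control replicate 13 the genes near Cbx2 and Cbx8 had a median of -0.27, with Cbx2 at -0.66 and Cbx8 at -0.62 against the median tumour. Near Cbx7 they had a median of -0.25 there, with Cbx7 itself at 0.55. The limit of 0.25 for calling a stretch shifted was set after the data were seen.

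**Figure D5:**
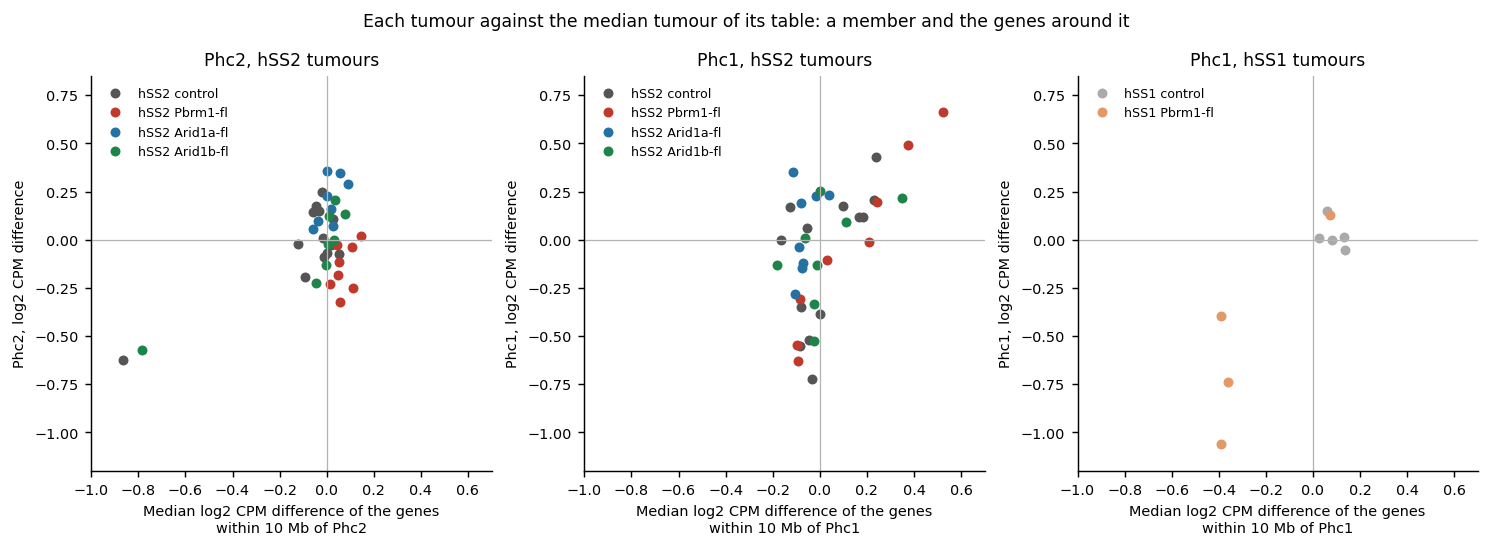
Difference of Phc2 or Phc1 from the median tumour of its table (vertical axes, log2 CPM) against the median difference of the genes within 10 Mb (horizontal axes, log2 CPM), 1 point per tumour. A control and an Arid1b-fl tumour stand apart at -0.87 and -0.78 for Phc2, and 3 of 4 hSS1 Pbrm1-fl tumours stand between -0.39 and -0.36 for Phc1.

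The listed partners were counted in the same fits. Of 23 other PRC1 genes, 1 was called higher (Pcgf1, log2 fold change 0.48, adjusted p = 0.0198) and 1 lower (Rnf2, -0.36, adjusted p = 0.0485) in Pbrm1-fl tumours against hSS2 controls with edgeR, beside 7.35% of all genes called in either direction. At an unadjusted edgeR p under 0.05 there were 10 of the 23 in this comparison, beside 22.4% of all genes. There were 10 in Pbrm1-fl against Arid1a-fl, beside 26.8%, and 2 in Arid1a-fl against control, beside 23.0%. Pcgf1 defines a variant PRC1, and Rnf2 encodes a RING ligase shared by canonical and variant complexes. Of 6 H2A deubiquitinase genes, Asxl3 was lower in Pbrm1-fl tumours than in hSS2 controls (-0.93, edgeR adjusted p = 0.017). Against controls of the same number range Rnf2 differed by -0.08 (adjusted p = 0.903) and Asxl3 by -1.06 (adjusted p = 0.0535), while Pcgf1 differed by 0.72 (adjusted p = 0.0152). Leaving out 1 tumour ended the Rnf2 call in 11 of 21 fits (adjusted p up to 0.108) and the Pcgf1 call in 2, without Pbrm1-fl replicate 3 or 7 (adjusted p up to 0.0821), and the Asxl3 call in 0. Pcgf1, Rnf2 and Asxl3 were also called, in the same directions, against Arid1a-fl (0.48, -0.41 and -0.91, edgeR adjusted p = 0.0273, 0.0298 and 0.0216) and Arid1b-fl tumours (0.55, -0.46 and -1.03, edgeR adjusted p = 0.0237, 0.0276 and 0.0214), comparisons that share the Pbrm1-fl tumours and in which 12.3% and 4.37% of all genes were called. With each group set against controls of its own range, Rnf2 differed by -0.03 and -0.04 (adjusted p = 0.953 and 0.981), Asxl3 by -0.86 and -1.54 (adjusted p = 0.267 and 0.171) and Pcgf1 by 0.85 in both (adjusted p = 0.0522 and 0.154). Without the 3 tumours with shifted genes around Phc1, Pcgf1 differed from controls by 0.38 (adjusted p = 0.134) and Asxl3 by -0.93 (adjusted p = 0.0553). Mga, of another variant PRC1, was lower in Pbrm1-fl than in Arid1a-fl tumours (-0.33, edgeR adjusted p = 0.00987), and by -0.09 (adjusted p = 0.76) through controls of each range. In Arid1a-fl against control, Rbbp4 was the called gene of 14 PRC2 genes, beside 3.17% of all genes (0.46, edgeR adjusted p = 0.0405). Its adjusted p was 0.101 against controls of the same range and 0.15 with the proliferation score as a covariate. The Rbbp4 call ended in 10 of 21 fits without 1 tumour. Rbbp4 lies at chr4:129307100-129335370, in the stretch that holds Phc2 and Arid1a. Without the 2 tumours with shifted genes around Phc2 it differed by 0.41 (edgeR adjusted p = 0.0409). In the test of the hSS1 effect against the hSS2 effect, Mga (0.62, edgeR adjusted p = 0.0332) and Pcgf1 (-1.15, edgeR adjusted p = 0.015) were called, beside 2.86% of all genes. The Mga call ended in 4 of 30 fits without 1 tumour (hSS1 control replicates 1 and 3, hSS1 Pbrm1-fl replicates 1 and 2, values 0.46 to 0.78 and adjusted p up to 0.142 over the 30) and with the proliferation score as a covariate (0.49, adjusted p = 0.124). The Pcgf1 call ended in 0 of the 30 (adjusted p up to 0.0448). Pcgf1 lies at chr6:83077869-83080855, near Wbp1 (chr6:83119044-83121559), the gene most like Phc1. Genes around Phc1, also on chromosome 6, were lower in hSS1 Pbrm1-fl replicates 1, 2 and 3. Leaving out 1 tumour cannot remove a shift shared by several, and its part in the Pcgf1 difference was not tested. None of 3 HP1 chromobox genes or 2 INK4 genes passed in any of the 8 comparisons with edgeR. At an unadjusted p under 0.05 there were 1 or fewer HP1 genes in each. The 2 INK4 genes were both under that limit in Pbrm1-fl against Arid1a-fl tumours, beside 26.8% of all genes. Their median log2 fold change there was -1.17, beside 0.016 over all genes. In each other comparison 1 or fewer INK4 genes were under it.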

How the data were processed

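Bulk RNA was sequenced from 46 mouse tumours, and the 9 members and all gene lists were chosen with earlier results of these data known. The authors deposited raw counts per gene in 1 table for hSS2 and 1 for hSS1, which were aligned and counted, per the submitters' processing notes, with STAR 2.7.11 and featureCounts 1.6.3 on mm10. Strand use in counting is not given in the sources used here. Columns were tied to samples by the column name given in each sample's description, with 0 columns left over. Genes were kept by edgeR's filter (minimum count 10, total 15), and counts were scaled by TMM. Groups were compared with edgeR's quasi-likelihood test (edgeR 4.0.16, R 4.3.3) with Benjamini-Hochberg adjustment over all genes tested (20083 in hSS2, 17786 in hSS1 and 21725 over both), with all groups of a table in the fit. On simulated counts, 71% of genes changed by 1 on the log2 scale were recovered for hSS2 Pbrm1-fl against control (19896 genes), and 12% for hSS1 (17399 genes). Ratios used exact permutation tests, and relations across tumours used 100000 permutations (scipy 1.17.1). log2 CPM used a prior count of 2. Named genes were the 9 members, the floxed genes, listed genes past the threshold and the 3 genes most like each member. Of the latter 1 that neighbours Cbx8 is not reported here. Alternatives were DESeq2 1.42.0, other size factors, no filter, only the groups compared, marker scores as covariates, controls of the same mouse number range and leaving out each tumour. No 2 libraries of a group were duplicates, since counts of every pair differed beyond sampling noise. p-values set group differences and relations against the spread between tumours. The tumours of an hSS2 floxed group share a number range, so their spread does not cover differences between ranges.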

Additional observations from a re-analysis of the deposited data

Results flagged for a closer look

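In 75 sets of values, each 1 item in 1 group, 4 had a tumour far from the others of its group. Chance gives about 1 in 20. The hSS2 controls were not among the groups examined in this way. Cbx6 was lowest in hSS2 Arid1a-fl replicate 1, at 243.9 CPM. Pcgf2 was lowest in hSS1 control replicate 5, at 72.73 CPM. The log2 ratio Phc1/Phc2 was highest in hSS2 Arid1b-fl replicate 6, at 0.84, and that tumour had the low genes around Phc2. The log2 ratio Cbx8/Cbx7 was lowest in hSS1 control replicate 1, at -1.67.

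Among the listed genes, the effect of Pbrm1 differed between hSS1 and hSS2 for Mga by 0.62 and for Pcgf1 by -1.15 (edgeR adjusted p = 0.0332 and 0.015). With the hSS2 controls numbered 2000 and over only, Mga differed by 0.51 (adjusted p = 0.221) and Pcgf1 by -1.39 (adjusted p = 0.0237). Leaving out 1 tumour ended the Mga call in 4 of 30 fits and the Pcgf1 call in 0. No member passed the test of the hSS1 effect against the hSS2 effect. Pcgf1 lies on chromosome 6, as does Phc1. The part of the shifted genes on that chromosome in the Pcgf1 difference was not tested.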

How the results depend on the processing

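Of 594 member fold changes recomputed under other settings, 584 kept their side of the threshold, 7 newly passed, 3 no longer passed and 0 reversed, while 52 changed sign without a call. Of 1350 with 1 tumour left out, 1348 kept it and 2 newly passed. With the proliferation score as a covariate, 1 member (Cbx7) was called in Pbrm1-fl against control and 1 (Cbx7) in Pbrm1-fl against Arid1b-fl, beside 8.09% and 5.87% of all genes. That covariate had a common slope for all groups, while Cbx7 followed the score with r = -0.05 within Pbrm1-fl tumours. With the skeletal muscle score as a covariate, 1 more member (Cbx2) was called in Pbrm1-fl against Arid1a-fl, beside 14.7%. With controls of the same mouse number range, 1 member (Bmi1) was called in Pbrm1-fl against control, beside 2.14%. DESeq2 called 1 member (Cbx7) in Arid1a-fl against control and 1 (Cbx2) in hSS1 Pbrm1-fl against control, beside 4.26% and 3.63%. In Pbrm1-fl against Arid1a-fl, the comparison through own-range controls lost both calls (Cbx7 and Phc2) and called 1 other member (Bmi1), beside 2.17%, and the fit without the 3 tumours with shifted genes around Phc1 kept 1 (Phc2), beside 10.1%. With 1 tumour left out, 0 to 1 members were called in Arid1a-fl against control, 2 to 2 in Pbrm1-fl against Arid1a-fl and 0 to 1 in the hSS1 and hSS2 difference. Of 3 paralog ratios called in Arid1a-fl against control, 0 were called with same-range controls and 0 to 3 with 1 tumour left out. Of 13 relations with marker scores, 4 passed in the 13 controls alone. The own-range comparison, the other exon length and the fits without shifted tumours were chosen after seeing the data, and the cause of these changes was not tested. No paired analysis was possible because the labels tie no tumour to a litter and the groups share no mouse numbers. The 4 hSS1 Pbrm1-fl tumours limit that comparison, and counts as low as 42 limit Cbx8.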
